A study of Mus musculus with 20 samples.

Results

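The nuclear genes for the subunits of the respiratory chain and of ATP synthase were measured in mouse bone marrow-derived macrophages (BMDM) that had been treated with lipoparticle (LP) formulations. Members were chosen by symbol: Nduf followed by a, b, c, s or v, Uqcr, Cox4 to Cox8, and Atp5. This took 88 of the 24421 genes in the count tables: 38 for complex I, 8 for complex III, 18 for complex IV, 17 for complex V, and 7 Ndufaf genes, whose products assemble complex I and are not part of it. Cells from 5 mice were each split over 4 conditions, named LP, LP 3M, LP PIC and LP 3M PIC, so that the study compares the particle alone with 1 or both added adjuvants. What PIC and 3M stand for, and in what amounts they were given, is not in the labels, and all 4 conditions share the particle. There was no untreated condition among these libraries. The macrophages were grown in medium conditioned by L929 cells, a fibroblast line that secretes the growth factor CSF-1, and RNA was taken after 48 h of treatment. The labels give a mouse number but no strain, age or sex.

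Oxidative phosphorylation passes electrons from NADH through complex I, or from succinate through complex II, to ubiquinone, then through complex III and cytochrome c to complex IV, which reduces oxygen. Complexes I, III and IV pump protons across the inner mitochondrial membrane, and complex V, the ATP synthase, lets them flow back to make ATP. Most subunits are encoded in the nucleus and imported, while a small set is encoded in mitochondrial DNA. Macrophages that meet microbial signals are known to shift from respiration towards glycolysis, with nitric oxide and itaconate acting on the chain. The mitochondrially encoded subunits are not analysed here, and complex II lies outside the rule and is given among the related gene lists.

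The label fits the members with some exceptions. Atp5s and Atp5sl match the pattern for ATP synthase but are not subunits of the enzyme. The counts, medians and sums given for complex V include them. Ndufa4 carries a complex I name and is counted with complex I here, although its protein is now placed in complex IV. No read was counted for Ndufs5, Cox7b2, Cox8b or Cox8c in any library. Ndufs5, a subunit gene of complex I used by most cells, is 60.8% covered by near-identical sequence elsewhere in the annotation (at least 98% identity over 100 bases or more). Why it had no reads was not tested, and its 0 is taken as a listed 0 and not as a measured absence. Cox4i2, Cox6b2 and Ndufa4l2 were almost silent, with 14, 42 and 5 reads in all 20 libraries together. The filter on low counts left 81 members to test: 36 for complex I, 8 for complex III, 13 for complex IV, 17 for complex V and 7 Ndufaf genes. Exons of Ndufs1, Ndufs3, Ndufb11, Ndufab1, Ndufa11, Ndufa13, Ndufaf3, Uqcrb, Cox4i1, Cox5a, Atp5a1, Atp5f1, Atp5j and Atp5l, among others, are overlapped by a gene on the other strand, so their counts are uncertain if the counting ignored strand, a setting not given in the sources. Cox7a1 had few reads and passed that filter through the conditions in which it was highest, so its differences are given as a description, without a test, although the counts of called members include it.

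Between 9.74 M and 23.9 M reads per library (M, 1000000 reads) were assigned to genes, with a median of 22.8 M, and the members took 0.620% to 0.803% of them. In counts per 1000000 of the library total (CPM), 3 reads correspond to between 0.126 and 0.308 CPM. The library with fewest reads was LP of mouse 2, followed by LP 3M PIC of mouse 3 with 12.5 M. The cells carried macrophage markers: 8 of 8 were detected in every condition, and their summed level ran from 11350 to 26958 CPM, with Lyz2 the highest. All 6 erythroid markers were at 0, and T and NK cell, B cell and mast cell markers summed to at most 1.05 CPM. Fibroblast markers summed to 15.8 to 136.5 CPM over the 20 libraries. Of 9 neutrophil markers in the tables, 7 or 8 had reads, led by Csf3r with Retnlg at 0. Their summed level was 31.2 to 69.3 CPM in LP, 64.1 to 123 CPM in LP PIC, 70.7 to 118 CPM in LP 3M and 99.3 to 757 CPM in LP 3M PIC. Dendritic cell markers reached 46.2 CPM in LP 3M PIC against at most 0.223 CPM in LP, led by Ccr7, with Xcr1, Siglech and Cd209a at 0 in LP 3M PIC. Whether these differences play a part in the results on the respiratory chain was not tested. In such bulk libraries fewer cells of a type and less RNA per cell cannot be told apart.

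Summed over its genes, each complex was highest in LP PIC or in LP 3M. The summed level of complex IV was 1499, 1385, 1502, 1485 and 1428 CPM in mice 1 to 5 with LP, 1548, 1553, 1786, 1827 and 1861 CPM with LP PIC, 1654, 1584, 1558, 1578 and 1562 CPM with LP 3M and 1442, 1381, 1469, 1504 and 1784 CPM with LP 3M PIC. On library totals all LP PIC and all LP 3M libraries thus lay above all LP libraries for complex IV, whereas LP 3M PIC overlapped LP. The mean sum of complex V was 2473 ± 99.9 CPM in LP (SD, n = 5), 2715 ± 151 CPM in LP PIC, 2764 ± 97.4 CPM in LP 3M and 2669 ± 218 CPM in LP 3M PIC. The LP 3M libraries of complex V lay wholly above LP, and those of LP PIC and LP 3M PIC overlapped it. Complex I summed to 1965 ± 47.1 CPM in LP, 2210.2 ± 164 CPM in LP PIC, 1993 ± 32.5 CPM in LP 3M and 1988 ± 202 CPM in LP 3M PIC, and each treatment overlapped LP. Complex III overlapped likewise, with means of 666 ± 28.0, 744 ± 55.5, 682 ± 8.82 and 674 ± 67.3 CPM in that order.

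**Figure D1:**
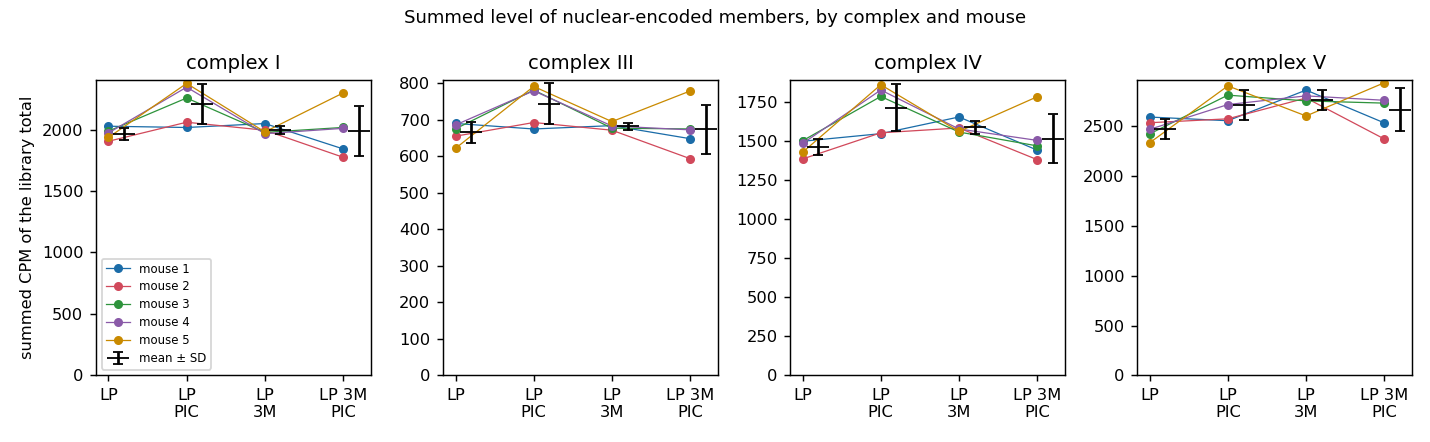
Summed CPM of the library total for complexes I, III, IV and V in each condition, with 1 colour per mouse and the mean ± SD in black. Mouse 5 is highest of the 5 mice in LP 3M PIC for every complex, with 1784 CPM for complex IV against 1381 to 1504 CPM in the other mice.

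The size of these differences varied between mice. With LP PIC the complex I sum of mice 1 to 5 was 0.995, 1.08, 1.14, 1.19 and 1.23 times that of the same mouse's LP library. The ratio was lowest in mouse 1, where it lay below 1, and highest in mouse 5. With LP 3M PIC the same ratios were 0.909, 0.932, 1.02, 1.02 and 1.19. These sums depend on the scale: after TMM scaling, which corrects library totals for genes that dominate them, complex I averaged 1878 ± 86.9 CPM in LP and 2049.7 ± 165 CPM in LP 3M PIC, and the LP 3M PIC sum was higher than LP in 5 of 5 mice, by 1.00 to 1.26 times. On that scale LP PIC overlapped LP for complex IV, while LP 3M PIC lay wholly above LP for complex V and LP 3M for complex III. LP 3M lay wholly above LP for complexes IV and V on both scales. No test was made of a sum.

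Levels of different genes were compared per length of exon. That length takes in the exons of all annotated transcripts of a gene, used or not, so ranks and shares between genes depend on the annotation. Averaged over the 20 libraries, Cox6a1 led complex IV with 249.6 CPM per kb of exon, and Atp5o, a stalk subunit of ATP synthase, led complex V with 224 CPM per kb. Ndufa2 led complex I with 135 CPM per kb and Uqcr10 led complex III with 111 CPM per kb. Ndufaf3 led the assembly factors with 11.9 CPM per kb. Exons of Atp5o are shared with other gene models on its own strand, among them Donson, so its level is uncertain. In all, 15 of 87 members with an annotated length had a near-identical stretch in a gene at another place, and for 7 it covered at least 50% of the exons: Atp5g2, Atp5h, Ndufs3, Uqcrb, Ndufs5, Cox7c and Atp5l.

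With LP PIC most of the called members rose, and they did so in every complex. Of 81 tested members, 45 were called higher and 3 lower than LP at an adjusted p under 0.05 (edgeR quasi-likelihood test, Benjamini-Hochberg over all genes). Among all 12132 tested genes 22.7% were called higher and 22.7% lower, 45.5% in either direction. The median log2 change of the members was 0.23, against -0.0004 over all genes. Complex I had 20 of 36 members higher and 2 lower, complex III 4 of 8 higher, complex IV 7 of 13 higher and 1 lower, complex V 11 of 17 higher, and the Ndufaf genes 3 of 7 higher. The medians were 0.24, 0.18, 0.25, 0.23 and 0.25 in that order. The changes were small: only 7 of the 48 called members differed by more than 0.5 on the log2 scale. Between 31 and 48 members were called when 1 mouse or 1 library was left out, the fewest without mouse 4 (28 higher, 3 lower). On TMM-scaled CPM, 27 members in LP PIC lay wholly above LP and 2 wholly below, against 16.5% and 17.8% of all tested genes.

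LP 3M moved fewer members, again mostly upwards. It raised 25 of 81 and lowered 2, where 20.0% of all tested genes were called higher and 19.5% lower, 39.5% in either direction. In either direction 33.3% of the members were called, below that share of all genes. Complex IV had the largest share, with 7 of 13 members higher and none lower and a median of 0.28. Complex V had 7 of 17 higher and 1 lower (median 0.17), complex I 8 of 36 higher and 1 lower (median 0.14), complex III 2 of 8 higher (median 0.13) and the Ndufaf genes 1 of 7 higher (median 0.15). The shares higher in complex I (22.2%), complex III (25%) and the Ndufaf genes (14.3%) were near or below the 20.0% of all genes. The 1 lower in complex V was Atp5sl, which is not a subunit. Whether the complexes differed from each other was not tested. With library totals alone, without TMM, the median of all genes moved from -0.013 to -0.12, the members split 17 higher to 4 lower and their median was 0.041. The members' median lay above that of all genes on both scales. A change of scale moves every gene by about the same amount, so it cannot test that difference. The libraries did not overlap for 24 members that were higher and 2 that were lower, against 14.8% and 12.9% of all tested genes.

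The dual formulation raised 36 of 81 members and lowered 8, while 31.7% of all tested genes were called higher and 30.6% lower, 62.2% in either direction. In either direction 54.3% of the members were called, below that share of all genes. The split by complex was 14 higher and 3 lower of 36 for complex I, 5 and 2 of 8 for complex III, 7 and 2 of 13 for complex IV, 6 and 0 of 17 for complex V, and 4 and 1 of 7 for the Ndufaf genes. Their medians were 0.17, 0.20, 0.26, 0.17 and 0.35. This split depends on the scale: with library totals alone it was 22 higher to 14 lower for the members, 9 to 8 in complex I, and the median of all genes was -0.096 in place of 0.016. In 22 members the dual libraries lay wholly above LP and in 3 wholly below, against 23.1% and 23.0% of all tested genes. The 3 comparisons with LP share the 5 LP libraries.

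**Figure D2:**
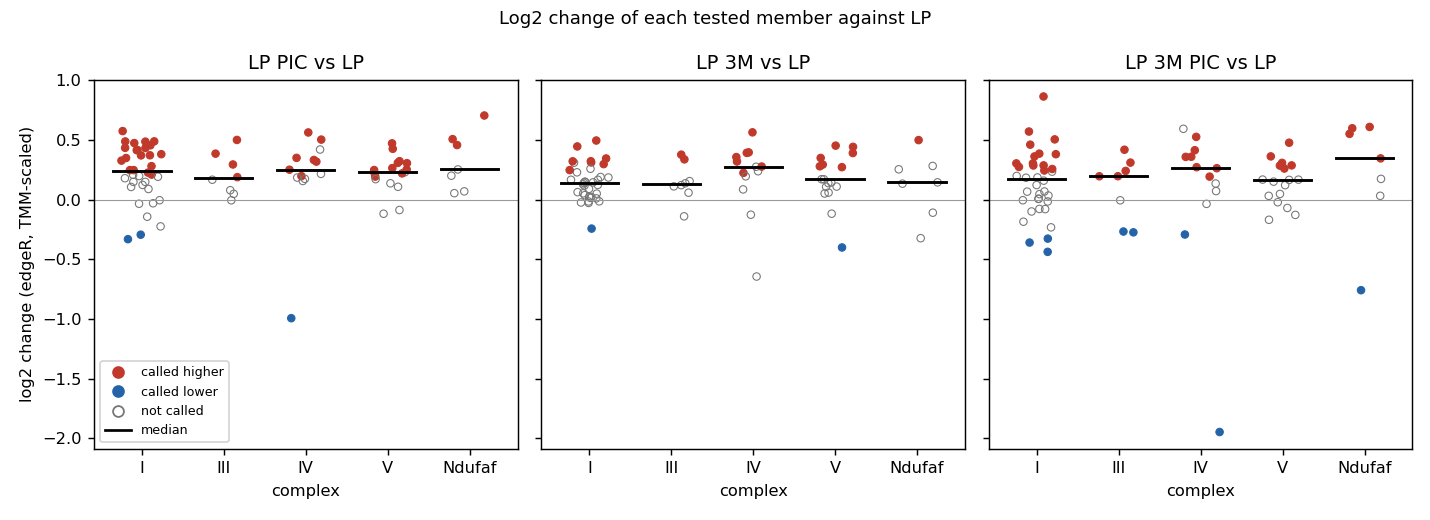
Log2 change of each of the 81 tested members against LP in the 3 treatments (y axis), by complex (x axis), filled red where called higher, filled blue where called lower and open where not called, with the median as a black line. Medians lie above 0 in every complex and treatment, and the lowest point is Cox7a1, at -0.99 with LP PIC and -1.95 with LP 3M PIC.

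Promoters of these genes are known for sites of the factors NRF1, of the ETS family (GABP) and of YY1. Windows from 250 bases before to 50 bases after the start, taken from RefSeq (GRCm38.p6), were found for 70 of the 88 members, 75 windows in all, and were searched on both strands. The NRF1 word, GCGC and TGCGC parted by 1 base of any kind, was present in 24% of the member windows and 4.60% of all 32851 windows of that length. The ETS word CCGGAAG was present in 20% against 8.86%, and the YY1 word AAGATGGCG in 9.33% against 1.40%. An interferon-response word, a pair of GAAA parted by 2 bases of any kind, was in 2.67% of member windows and 3.44% of all windows. The cyclic AMP response word TGACGTCA was in 5.33% against 1.79%. No matches of different words overlapped in the member windows. A match is a description of the sequence and not evidence of binding. Printed here are the promoters of the member with the largest rise under LP 3M PIC (Ndufs4), of the member with the strongest non-additive response (Cox8a) and of an assembly factor that rose in all 3 treatments (Ndufaf4), with matches in capitals, followed by the Ndufa4 promoter and that of its relative AA467197, which hold none of these words.
Ndufs4 (minus strand of chr13:114388045-114388344, YY1 word): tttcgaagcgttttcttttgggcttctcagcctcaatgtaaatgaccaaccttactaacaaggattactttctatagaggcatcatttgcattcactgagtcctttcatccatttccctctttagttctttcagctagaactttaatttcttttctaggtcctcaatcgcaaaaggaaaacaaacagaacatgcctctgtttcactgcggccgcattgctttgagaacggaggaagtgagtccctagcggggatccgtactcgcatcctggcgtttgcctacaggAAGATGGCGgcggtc
Cox8a (minus strand of chr19:7217567-7217866, a pair of ETS words on the reverse strand): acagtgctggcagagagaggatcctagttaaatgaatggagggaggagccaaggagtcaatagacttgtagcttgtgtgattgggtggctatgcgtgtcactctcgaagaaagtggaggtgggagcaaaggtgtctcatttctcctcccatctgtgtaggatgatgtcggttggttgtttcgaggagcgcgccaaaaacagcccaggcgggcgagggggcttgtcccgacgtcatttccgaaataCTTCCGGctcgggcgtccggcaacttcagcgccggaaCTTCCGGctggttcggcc
Ndufaf4 (plus strand of chr4:24897833-24898132, NRF1 word): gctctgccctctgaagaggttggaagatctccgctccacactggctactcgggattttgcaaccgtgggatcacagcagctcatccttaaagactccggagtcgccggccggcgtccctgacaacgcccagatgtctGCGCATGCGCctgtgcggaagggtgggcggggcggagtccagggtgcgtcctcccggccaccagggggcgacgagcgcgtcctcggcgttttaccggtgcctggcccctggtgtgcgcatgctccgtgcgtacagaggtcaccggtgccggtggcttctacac
Ndufa4 (minus strand of chr6:11907401-11907700): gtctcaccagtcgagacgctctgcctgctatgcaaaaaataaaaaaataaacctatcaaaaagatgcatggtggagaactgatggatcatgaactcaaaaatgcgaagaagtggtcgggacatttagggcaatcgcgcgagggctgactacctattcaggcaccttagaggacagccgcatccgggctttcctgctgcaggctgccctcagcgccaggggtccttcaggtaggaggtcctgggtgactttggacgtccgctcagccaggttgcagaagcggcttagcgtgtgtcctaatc
AA467197 (plus strand of chr2:122637637-122637936): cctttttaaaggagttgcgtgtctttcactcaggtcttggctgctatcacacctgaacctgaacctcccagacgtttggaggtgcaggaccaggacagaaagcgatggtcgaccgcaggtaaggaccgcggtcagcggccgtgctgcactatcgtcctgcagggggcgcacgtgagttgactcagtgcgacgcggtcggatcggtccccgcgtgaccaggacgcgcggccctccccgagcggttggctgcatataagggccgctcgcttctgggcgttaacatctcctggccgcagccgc

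Complex I takes electrons from NADH through a module of 3 core subunits, and of these genes Ndufs1 fell with PIC while Ndufv2 rose. Ndufs1, the largest core subunit and carrier of iron-sulfur clusters, stood at 86.0, 81.3, 72.4, 80.1 and 74.6 CPM in mice 1 to 5 with LP, 58.2, 66.9, 64.6, 53.7 and 69.1 CPM with LP PIC, 69.8, 72.3, 70.1, 72.5 and 77.3 CPM with LP 3M and 55.2, 57.2, 55.1, 57.6 and 65.9 CPM with LP 3M PIC. Both conditions with PIC lay wholly below both conditions without it. Ndufs1 fell with LP PIC (log2 change -0.29, SE 0.06, edgeR adjusted p = 0.000694) and with LP 3M PIC (log2 change -0.33, SE 0.06, edgeR adjusted p = 0.000137), while LP 3M differed from LP by -0.01 (edgeR adjusted p = 0.877). Ndufv2, its neighbour in the module, rose by 0.25 with LP PIC, 0.32 with LP 3M and 0.29 with LP 3M PIC on the log2 scale. Ndufv1, which binds the flavin and NADH, was not called in any comparison, with log2 changes of -0.0047, -0.02 and -0.08. The genes on the other strand of Ndufs1 exons are Eef1b2 and Ino80dos.

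Core subunits that pass electrons on to quinone were also divided. Ndufs3 stood at 48.6, 42.3, 50.2, 45.9 and 42.1 CPM with LP and 66.7, 60.5, 63.6, 75.6 and 65.1 CPM with LP PIC, without overlap, and rose (log2 change 0.57, SE 0.10, edgeR adjusted p = 0.000164). A near-identical copy covers 75.7% of its exons, which makes the size of that change uncertain. Ndufs7, the subunit with the last iron-sulfur cluster before quinone, rose with LP PIC from 55.3 ± 2.65 to 72.6 ± 9.75 CPM (log2 change 0.43, SE 0.09, edgeR adjusted p = 0.000578). With LP 3M PIC both were higher than LP by 0.39 and 0.24, but the call for Ndufs7 was lost with library totals alone (adjusted p = 0.191), without mouse 4 (adjusted p = 0.115) and without the LP library of mouse 2 (adjusted p = 0.0551) in edgeR. LP 3M left both uncalled, at 0.12 and 0.05. Ndufs8, which carries iron-sulfur clusters in this module, was not called in any comparison. The core subunits Ndufs1, Ndufs3, Ndufs7, Ndufs8, Ndufv1 and Ndufv2 were chosen for display after their values were seen, as were Ndufv3, Ndufb11, Ndufa13, Uqcr11, Uqcrh, Uqcrfs1, Atp5a1 and Atp5c1.

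Among the accessory subunits of complex I, 17 of 29 tested rose with LP PIC, 7 with LP 3M and 11 with LP 3M PIC, while 1, 1 and 2 fell. These are 58.6%, 24.1% and 37.9% higher, against 22.7%, 20.0% and 31.7% of all genes, so that the shares with LP 3M and LP 3M PIC were near the background. Ndufs4, whose loss in patients causes complex I deficiency, had the largest rise of any member with the dual formulation. It stood at 30.6, 30.8, 27.4, 30.7 and 24.9 CPM with LP, 38.0, 36.0, 37.8, 46.7 and 33.4 CPM with LP PIC, 35.6, 33.4, 36.0, 34.0 and 30.7 CPM with LP 3M and 49.1, 47.3, 44.2, 53.4 and 49.0 CPM with LP 3M PIC. The dual libraries all exceeded those of LP and LP 3M, and of the LP PIC libraries only that of mouse 4 reached their range. The rise over LP was 0.86 (SE 0.09, edgeR adjusted p = 1.11e-07), against 0.46 with LP PIC and 0.35 with LP 3M, and Ndufs4 was also higher with LP 3M PIC than with LP PIC (adjusted p = 0.00111) and LP 3M (adjusted p = 0.000146).

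Ndufab1, the mitochondrial acyl carrier protein that also serves lipoic acid synthesis, rose in every treatment. Its level was 38.4, 33.1, 31.2, 32.4 and 32.8 CPM with LP and 45.1, 47.4, 41.1, 44.5 and 41.3 CPM with LP 3M, without overlap, and the log2 changes were 0.43, 0.50 and 0.57 with LP PIC, with LP 3M and with LP 3M PIC. Ndufc2 followed with 0.49, 0.45 and 0.46, and Ndufa11 with 0.49, 0.30 and 0.51. Both are accessory subunits of the membrane arm. Against this trend, Ndufb11, an accessory subunit of the membrane arm encoded on the X chromosome, fell with LP 3M PIC from 54.2 ± 3.97 to 37.1 ± 5.27 CPM (log2 change -0.44, SE 0.09, edgeR adjusted p = 0.000499). Its fall with LP 3M (-0.24, edgeR adjusted p = 0.0473) was lost without mouse 1, 3 or 4 (adjusted p = 0.11, 0.149 and 0.141), without the LP 3M PIC library of mouse 3 or the LP PIC library of mouse 5 (adjusted p = 0.0506 and 0.0538), and without a filter on low counts. Ndufv3, an accessory subunit at the NADH module, was called in 1 of the 3 comparisons with LP, as lower with LP 3M PIC (log2 change -0.36, adjusted p = 0.00177), with -0.14 and 0.02 for the single formulations. It was also lower with LP 3M PIC than with LP 3M (-0.38, adjusted p = 0.00222).

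The Ndufaf assembly factors held both the largest member rise with LP PIC (Ndufaf6) and the lowest log2 change with LP 3M PIC after Cox7a1 (Ndufaf7). Ndufaf6 rose from 4.35 ± 0.609 to 6.90 ± 0.917 CPM with LP PIC (log2 change 0.71, SE 0.13, edgeR adjusted p = 0.000148), with the 5 LP PIC libraries at 5.44 to 7.67 CPM and LP at 3.53 to 5.09 CPM. Ndufaf4 rose in all 3 treatments, by 0.46, 0.50 and 0.61. Ndufaf3 rose with both PIC conditions (0.51 and 0.55) and was at 0.13 with LP 3M, and Ndufaf5 was called only with LP 3M PIC (0.35, adjusted p = 0.0156), a call lost with library totals alone (adjusted p = 0.0919) and without mouse 3 or 5 (adjusted p = 0.0572 and 0.0544). Ndufaf7, a methyltransferase needed for the assembly of complex I, stood at 19.6, 19.9, 16.9, 18.2 and 18.4 CPM with LP and 7.47, 7.52, 11.4, 8.53 and 16.1 CPM with LP 3M PIC, without overlap. It fell (log2 change -0.76, SE 0.16, edgeR adjusted p = 0.000342), while LP PIC averaged 18.7 ± 2.41 CPM, near the LP mean of 18.6 ± 1.22 CPM, and LP 3M differed from LP by -0.32 (adjusted p = 0.106). Mouse 5 was the highest of the LP 3M PIC libraries.

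In complex III the calls with LP PIC and LP 3M were all upwards and those with LP 3M PIC went both ways. Uqcrq, a small subunit of the membrane core, was 73.8, 64.9, 79.0, 80.1 and 70.7 CPM with LP and 89.2, 92.4, 106, 107 and 113 CPM with LP PIC, without overlap, and rose (log2 change 0.50, SE 0.09, edgeR adjusted p = 0.000149). With LP 3M and LP 3M PIC it rose by 0.34 and 0.42. Uqcrb, which lies near the quinone site, rose by 0.29, 0.38 and 0.31, and Uqcr10 by 0.39 with LP PIC and 0.24 with LP 3M PIC. The Uqcr10 call with LP 3M PIC was lost with library totals alone (adjusted p = 0.218) and without mouse 1, 3 or 5 (adjusted p = 0.0616, 0.0976 and 0.143) or the LP 3M PIC library of mouse 3 (adjusted p = 0.0751). The Rieske protein gene Uqcrfs1 was not called in any comparison. Uqcrh, the hinge protein at cytochrome c1, and Uqcr11 fell with LP 3M PIC by 0.27 each on the log2 scale (edgeR adjusted p = 0.0217 and 0.0342). Uqcr11 was 44.8, 40.1, 41.8, 43.1 and 62.7 CPM with LP 3M PIC and 65.2, 59.1, 57.9, 60.3 and 59.2 CPM with LP, so that mouse 5 alone stood within the range of LP. Both calls were lost on leaving out mouse 1, 3 or 4 (adjusted p of 0.0823, 0.0662 and 0.0766 for Uqcrh, and 0.121, 0.12 and 0.121 for Uqcr11), and that for Uqcr11 also without mouse 2 or the LP 3M PIC library of mouse 3 (adjusted p = 0.0948 and 0.0826).

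Complex IV contains subunits with tissue-specific forms, and macrophages used the widespread ones. Per kb of exon, Cox7a1, the form of heart and muscle, was at most 0.0440 of Cox7a2, and Cox6a2, likewise a muscle form, at most 0.0170 of Cox6a1. Within that low level Cox7a1 was highest on average with LP: it was 1.39, 1.03, 1.05, 1.26 and 1.97 CPM with LP, 0.889, 0.259, 0.438, 0.882 and 0.807 CPM with LP PIC, 0.754, 0.772, 0.499, 1.14 and 0.828 CPM with LP 3M and 0.371, 0.171, 0.399, 0.157 and 0.513 CPM with LP 3M PIC. All LP PIC and all LP 3M PIC libraries lay below all LP libraries, and LP 3M overlapped both LP and LP PIC. Some of the LP 3M PIC values are near 3 reads per library. The fitted log2 changes were -0.99, -0.64 and -1.95 with LP PIC, with LP 3M and with LP 3M PIC. Cox7a2 rose in all 3 treatments, by 0.33, 0.32 and 0.36, though with LP 3M the adjusted p was 0.0506 with library totals alone. Cox7a2l, which helps join complexes III and IV into supercomplexes, was lower with LP 3M PIC than with LP PIC, at 119.5, 109, 155, 145 and 166 against 198, 183, 209, 216 and 205 CPM without overlap (log2 change -0.48, SE 0.10, edgeR adjusted p = 0.000841).

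The largest rise with LP 3M was that of Cox5a, a subunit on the matrix side of complex IV that is common to all tissues. Cox5a stood at 119.6, 166, 109, 114 and 107 CPM with LP and 175, 178, 160.3, 179.8 and 147 CPM with LP 3M. Mouse 2 was far above the other LP libraries, and 3 of the LP 3M libraries exceeded even that value. Cox5a rose with LP 3M (log2 change 0.56, SE 0.11, edgeR adjusted p = 0.000359) and with LP 3M PIC by 0.53 (adjusted p = 0.000257). With LP PIC the change was 0.32 (adjusted p = 0.0192), which missed the threshold when mouse 3, 4 or 5 was left out (adjusted p = 0.0677, 0.112 and 0.125) or the LP PIC library of mouse 5 (adjusted p = 0.0569). Cox8a, the smallest subunit, was 135, 111, 126, 127 and 119 CPM with LP, 160.3, 161, 177, 193 and 196 CPM with LP PIC, 159, 150.0, 139, 141 and 145 CPM with LP 3M and 143, 132, 136, 142 and 183 CPM with LP 3M PIC. Its single treatments did not overlap LP, and the dual libraries overlapped LP through mouse 2. Cox8a rose by 0.56 with LP PIC (adjusted p = 3.79e-05) and by 0.36 and 0.36 with LP 3M and LP 3M PIC. Cox5b rose by 0.50, 0.39 and 0.41, and Cox7b by 0.40 with LP 3M and 0.26 with LP 3M PIC, the latter lost with library totals alone (adjusted p = 0.133) and without mouse 2 or 5 or the LP library of mouse 2 (adjusted p = 0.0507, 0.113 and 0.0517). Cox4i1, the widespread form of the regulatory subunit, was not called in any comparison.

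The alpha and beta subunits of ATP synthase alternate in the ring that makes ATP, and beta was called against LP where alpha was not. Atp5b, the beta subunit and the most abundant member in CPM, was 631, 601, 573, 592 and 556 CPM with LP, 671, 680.1, 713, 642 and 738 CPM with LP PIC, 794, 751, 759.9, 761 and 678 CPM with LP 3M and 751, 687, 754, 807 and 807 CPM with LP 3M PIC. No treated library of Atp5b overlapped LP. It rose by 0.26, 0.45 and 0.48 (adjusted p = 0.00308, 3.24e-05 and 4.59e-06 by edgeR). The alpha subunit Atp5a1 was not called against LP, at -0.12, 0.17 and -0.02. The difference between the genes was not tested. Of the 5 head and central stalk genes, 4, 2 and 2 rose with LP PIC, with LP 3M and with LP 3M PIC. Of the 10 genes of the membrane part and peripheral stalk, 6, 5 and 4 rose and none fell. The shares called higher were 80%, 40% and 40% for the head and central stalk, and 60%, 50% and 40% for the membrane part and peripheral stalk. Of all genes 22.7%, 20.0% and 31.7% were called higher, so that with LP 3M PIC both parts, at 40%, were near that share.

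In the membrane part and peripheral stalk, Atp5l rose by 0.47, 0.44 and 0.36 and Atp5o by 0.31, 0.28 and 0.26. The Atp5o calls with LP 3M and LP 3M PIC were lost with library totals alone (adjusted p = 0.0768 and 0.0894). The proton-carrying c subunit is encoded by a trio of genes whose mature proteins are identical. Per kb of exon, Atp5g3 made up 48.8% ± 6.22 of their sum with LP, 48.0% ± 1.26 with LP PIC, 52.5% ± 1.86 with LP 3M and 54.7% ± 2.57 with LP 3M PIC (SD, n = 5). Atp5g2 made up 40.2% ± 5.41, 41.5% ± 1.47, 35.5% ± 1.75 and 34.0% ± 2.05 in the same order, and Atp5g1 the rest. These shares depend on the exon lengths over all annotated transcripts, 4912 bases for Atp5g1, 1675 for Atp5g2 and 2181 for Atp5g3. Without division by length, Atp5g1 averaged 71.5 CPM over the 20 libraries, Atp5g2 82.3 CPM and Atp5g3 144 CPM. The LP value of mouse 2 lay apart, with 59.6% for Atp5g3. Atp5g1 and Atp5g3 rose with LP 3M by 0.39 and 0.35, and Atp5g2, which is 88.2% covered by near-identical sequence, was lower with LP 3M PIC than with LP PIC (log2 change -0.36, adjusted p = 0.00571).

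Atp5sl, matched by its symbol and not a subunit, moved in opposite directions with the single formulations. It was 18.0, 20.3, 22.4, 20.0 and 19.4 CPM with LP, 23.6, 23.5, 22.1, 25.1 and 27.5 CPM with LP PIC and 14.7, 13.1, 14.9, 12.9 and 14.8 CPM with LP 3M. The LP 3M libraries lay wholly below both others. Against LP it fell with LP 3M (log2 change -0.40, SE 0.10, edgeR adjusted p = 0.00287) and rose with LP PIC by 0.32 (adjusted p = 0.00988), the latter call lost without mouse 1, 4 or 5 (adjusted p = 0.0566, 0.0501 and 0.0672). LP 3M was lower than LP PIC (log2 change -0.72, adjusted p = 8.54e-06), the largest fall among members in that comparison.

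Ndufa4 was lower with PIC, where most called members were higher. It was 51.9, 37.7, 37.5, 43.9 and 42.0 CPM in mice 1 to 5 with LP, 28.9, 30.1, 36.0, 40.0 and 29.0 CPM with LP PIC, 42.5, 40.1, 42.4, 42.2 and 48.0 CPM with LP 3M and 32.9, 33.4, 32.2, 30.4 and 38.9 CPM with LP 3M PIC. Every LP 3M library lay above every library with PIC, while LP overlapped both PIC conditions. Ndufa4 was lower with LP 3M PIC than with LP 3M (log2 change -0.36, SE 0.10, edgeR adjusted p = 0.00817) and higher with LP 3M than with LP PIC by 0.45 (adjusted p = 0.00114). Against LP it fell with LP PIC (log2 change -0.33, SE 0.10, edgeR adjusted p = 0.0112), which missed the threshold when mouse 1 was left out (adjusted p = 0.136), and with LP 3M PIC it was at -0.23 (adjusted p = 0.0517). Its relative Ndufa4l2 had 5 reads in all.

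AA467197 (also named Nmes1) encodes a small mitochondrial protein related to Ndufa4, and its transcript carries the precursor of the microRNA miR-147: all 79 of 79 bases of the Mir147 hairpin lie in its exons. AA467197 is no member by symbol. It was 9.08, 11.2, 13.5, 11.7 and 10.2 CPM with LP, 55.7, 56.9, 46.2, 60.8 and 30.5 CPM with LP PIC, 9.34, 8.63, 14.7, 8.22 and 7.89 CPM with LP 3M and 28.4, 30.0, 46.0, 36.1 and 39.5 CPM with LP 3M PIC. Both PIC conditions lay wholly above both others. It rose with LP PIC (log2 change 2.21, SE 0.20, edgeR adjusted p = 6.95e-08) and LP 3M PIC (log2 change 1.79, SE 0.20, edgeR adjusted p = 3.53e-07), and LP 3M differed from LP by -0.09 (adjusted p = 0.766). Per kb of exon, AA467197 stood at 0.308 ± 0.0783 of Ndufa4 with LP (SD, n = 5), 1.76 ± 0.438 with LP PIC, 0.262 ± 0.0797 with LP 3M and 1.24 ± 0.268 with LP 3M PIC.

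**Figure D3:**
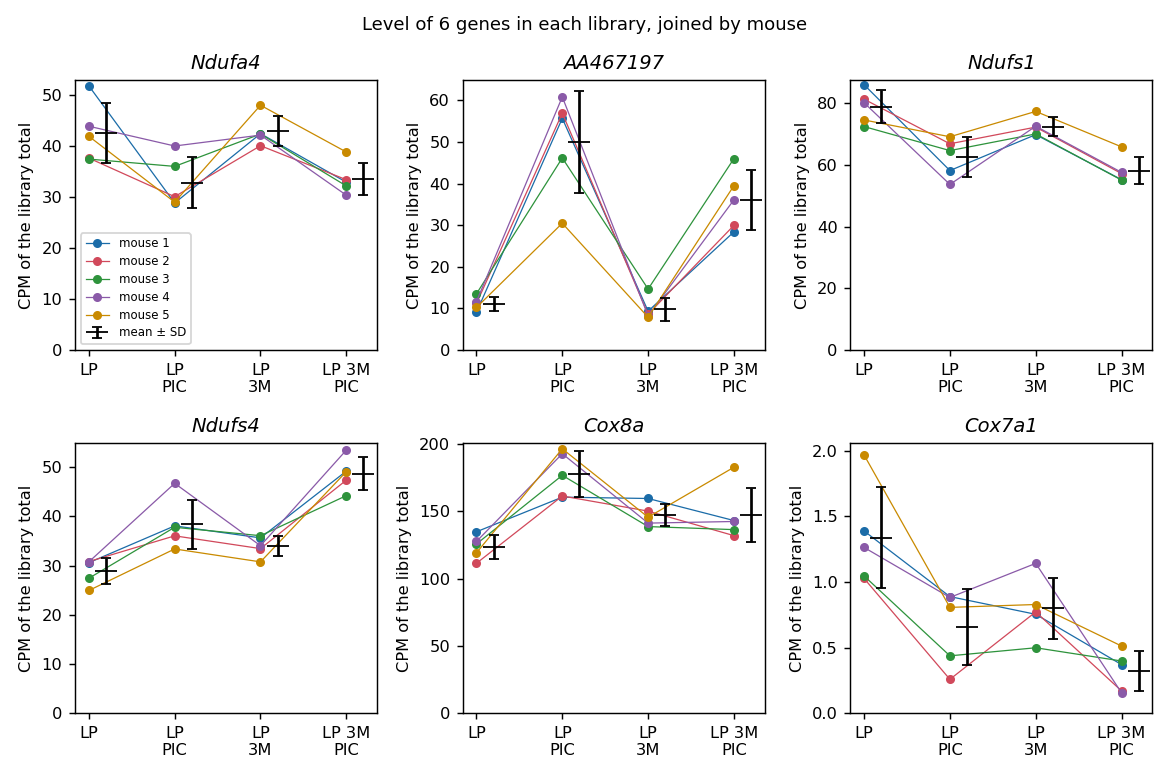
CPM of the library total (y axis, from 0) of 6 genes in the 4 conditions, with 1 coloured line per mouse and the mean ± SD in black. Ndufs1 and Ndufa4 are lower and AA467197 higher in the conditions with PIC, and Ndufs4 is highest in LP 3M PIC, at 44.2 to 53.4 CPM.

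Set against each single formulation, the dual one changed few members. Compared with LP PIC, 3 of 81 rose and 11 fell, where 23.1% of all tested genes were called higher and 21.4% lower, 44.5% in either direction. Compared with LP 3M, 7 rose and 6 fell, where 20.5% and 21.0% were called, 41.5% in either direction. The members' median log2 changes were -0.085 and -0.019. Libraries did not overlap for 0 higher and 2 lower members against LP PIC (12.9% and 11.4% of all tested genes), and for 2 higher and 3 lower against LP 3M (12.1% and 13.1%). The 3 that rose over LP PIC were Ndufs4, Atp5b and Atp5f1. Atp5b missed the threshold without mouse 1 or 4 (adjusted p = 0.0597 and 0.125) and with library totals alone (adjusted p = 0.0752). Atp5f1 missed it without mouse 1, 2, 3 or 5 (adjusted p = 0.11, 0.119, 0.147 and 0.0631), without the LP 3M PIC library of mouse 3 or the LP PIC library of mouse 5 (adjusted p = 0.0568 and 0.106) and with library totals alone (adjusted p = 0.2). Without a filter on low counts, and in a fit on the conditions compared alone, both were lost too. The largest falls were those of Ndufaf7 (-0.81) and Cox7a2l (-0.48). Against LP 3M, Ndufaf7 was lower (-0.44). It lost that call without mouse 1, 2, 3 or 4 (adjusted p = 0.106, 0.13, 0.0982 and 0.112) or the LP 3M library of mouse 5 (adjusted p = 0.0713). The count against LP PIC was 1 higher to 24 lower with library totals alone. When 1 mouse or library was left out it ranged from 7 calls (without mouse 4) to 18 (without mouse 5), with 8 without mouse 1 and 9 without the LP PIC library of mouse 5. Against LP 3M it was 6 without mouse 4 and 8 without mouse 3.

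LP 3M against LP PIC raised 6 members and lowered 15, where 24.4% of all tested genes were called higher and 22.7% lower, 47.1% in either direction. Complex V split 4 higher to 2 lower, of which 1 was Atp5sl, and complex I 2 to 8. The higher ones were Ndufa4, Ndufs1, Atp5a1, Atp5b, Atp5f1 and Atp5g1. Those of ATP synthase missed the threshold without mouse 1 (adjusted p = 0.0722, 0.151, 0.0752 and 0.199 in that order) and without mouse 4 (0.111, 0.162, 0.0627 and 0.117), and Atp5b, Atp5f1 and Atp5g1 also without mouse 2 or 3 and with library totals alone. The lower ones included Ndufs3 (-0.46), Ndufs7 (-0.38), Ndufa13 (-0.32) and Cox7a2l (-0.31). Ndufa13 lost that call without mouse 4 or 5 (adjusted p = 0.0823 and 0.0519) and Cox7a2l without mouse 1 or 4 (adjusted p = 0.0551 and 0.0699). With library totals alone the split was 3 higher to 24 lower, and without mouse 4 only 2 and 4 were called. Libraries did not overlap for 3 higher and 7 lower members, against 17.2% and 13.9% of all tested genes.

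The labels give no amounts, so a test of whether both adjuvants add up on the log2 scale assumes that each amount was the same alone and together. This interaction is the change with LP 3M PIC minus the sum of both single changes. It was below 0 for 74 of 81 members, with a median of -0.28 against 0.00098 over all genes, of which 49.9% were below 0. Of the 81 members, 9 were called lower and 0 higher, where 4.62% of all tested genes were called lower and 3.82% higher, 8.43% in either direction. At an unadjusted p under 0.05, 45 were lower and 0 higher, and DESeq2 called 13, all lower. The 9 were Cox8a (-0.56), Atp5l (-0.55), Cox5b (-0.48), Ndufc2 (-0.47), Uqcrq (-0.42), Uqcrb (-0.36), Ndufab1 (-0.36), Atp5c1 (-0.31) and Ndufv2 (-0.28). In each of them 5 of 5 mice had a negative value. With the mouse as a block 16 were called lower and 0 higher. The count rests on single mice: 0 were called by edgeR without mouse 4 (20 lower at an unadjusted p under 0.05), 1 without mouse 1, 2 without mouse 2, 3 without mouse 3 and 20 without mouse 5. Without single libraries it was 5 (LP, mouse 2), 4 (LP 3M PIC, mouse 3), 8 (LP PIC, mouse 5) and 13 (LP 3M, mouse 5). The medians over the complexes were -0.26 for I, -0.20 for III, -0.34 for IV and -0.27 for V. Ndufs4 (0.06), Ndufs1 (-0.02) and Ndufa4 (-0.02) were near 0. Values below 0 were not particular to the members. In related lists, described below, they were found for 20 of 21 citric acid cycle genes (median -0.16) and 8 of 8 electron carriers and other subunits (-0.25). Complex II had 3 of 4 below 0 (-0.30), the mitochondrial ribosome 56 of 77 (-0.15) and the inducible genes 7 of 8 (-1.48). Assembly factors had 26 of 42 (-0.05) and biogenesis regulators 6 of 17 (0.10).

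**Figure D4:**
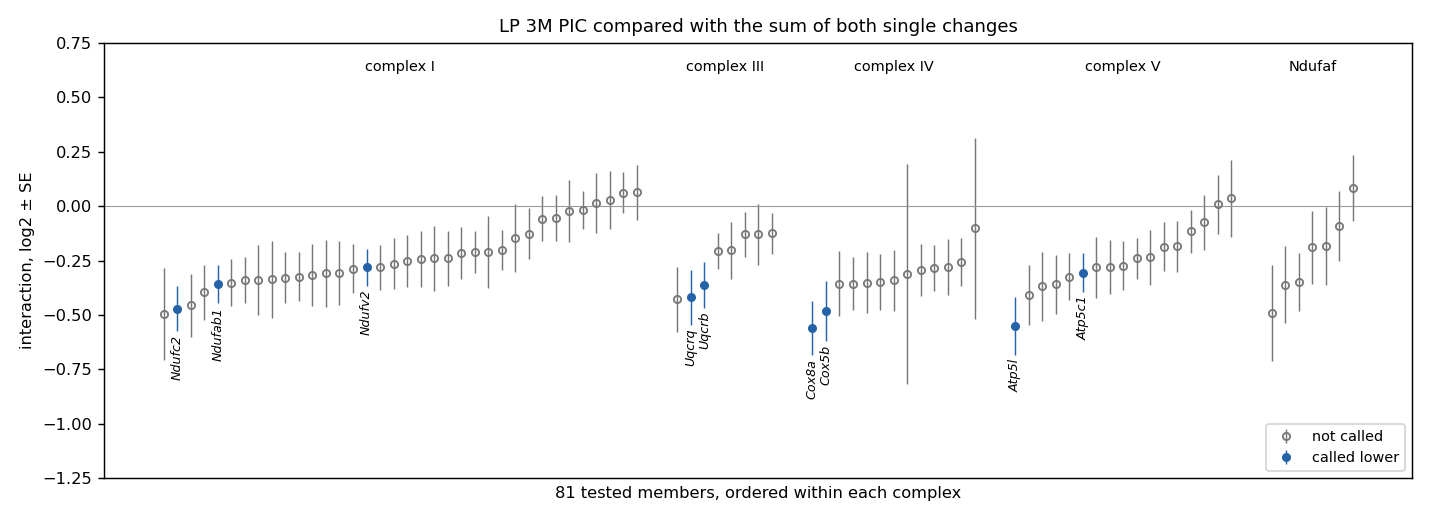
Interaction of 3M and PIC for the 81 tested members (log2, with SE as bars), ordered within each complex on the x axis, with filled blue points for the 9 called. The values run from -0.56 for Cox8a to 0.08, and none of the points above 0 was called.

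Genes that work beside these complexes were taken from lists of the wider pathway. Their counts stand against the 22.7%, 20.0% and 31.7% of all genes called higher with LP PIC, with LP 3M and with LP 3M PIC, and the 22.7%, 19.5% and 30.6% called lower. Of the 8 electron carriers and subunits missed by the symbols, 4 rose with LP PIC, 4 rose and 1 fell with LP 3M, and 4 rose and 3 fell with LP 3M PIC, so that 50% were higher in each. Cycs, the gene of cytochrome c, went from 49.7 ± 8.16 CPM in LP to 65.1 ± 9.50, 76.5 ± 10.5 and 83.1 ± 8.47 CPM (log2 changes 0.44, 0.74 and 0.86), and the call with LP PIC was lost without mouse 4 (adjusted p = 0.0846). Usmg5, a small ATP synthase subunit, rose by 0.61, 0.50 and 0.77, and Cyc1, the cytochrome c1 of complex III, by 0.38, 0.29 and 0.46. Coq10a, a coenzyme Q binding protein, fell with LP 3M (-0.38) and LP 3M PIC (-0.49). Of the 4 complex II genes, Sdhb and Sdhd rose with LP PIC (0.46 and 0.45), none was called with LP 3M, and the catalytic Sdha fell with LP 3M PIC from 228 ± 10.6 to 175 ± 18.7 CPM (log2 change -0.27, SE 0.07, edgeR adjusted p = 0.00246). Sdhb was called higher with LP 3M PIC (0.26). Among other runs, that call was lost with library totals alone (edgeR adjusted p = 0.24) and without mouse 1, 3, 4 or 5 (edgeR adjusted p = 0.084, 0.0654, 0.113 and 0.267).

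The 42 tested assembly factors had 23 higher and 1 lower with LP PIC, 8 and 1 with LP 3M, and 21 and 5 with LP 3M PIC. With LP PIC 54.8% and with LP 3M PIC 50% were thus higher, while the share with LP 3M was near the 20.0% of all genes. This list holds no Ndufaf gene. Cox17, a copper chaperone for complex IV, rose by 0.73, 0.64 and 1.14, and Ttc19, needed for complex III, by 0.42, 0.55 and 0.99, with the call for LP PIC lost without mouse 1 (adjusted p = 0.0598). Cmc2, a factor for complex IV, fell with LP PIC (-0.60, lost without mouse 1 at adjusted p = 0.0503) and LP 3M PIC (-0.68). Of the 77 genes of the mitochondrial ribosome, which translates the subunits encoded in mitochondrial DNA, 44 rose and 1 fell with LP PIC, 17 rose and 0 fell with LP 3M, and 41 rose and 0 fell with LP 3M PIC. The shares higher were 57.1%, 22.1% and 53.2%, again near the background with LP 3M. Mrpl52 and Mrpl45 led with log2 changes of 1.93 and 1.38 with LP 3M PIC.

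Of 21 genes of the citric acid cycle 6 rose and 5 fell with LP PIC, 10 rose and 1 fell with LP 3M, and 6 rose and 6 fell with LP 3M PIC. The shares with LP PIC (28.6% higher, 23.8% lower) and LP 3M PIC (28.6% each) were near those of all genes (22.7% and 22.7%, and 31.7% and 30.6%), and with LP 3M 47.6% were higher against 20.0%. Mitochondrial Mdh2 rose by 1.01 and cytosolic Mdh1 fell by 0.95 on the log2 scale with LP 3M PIC. Among 17 tested regulators of mitochondrial biogenesis, 5, 4 and 4 rose and 2, 2 and 1 fell with LP PIC, with LP 3M and with LP 3M PIC. The 29.4%, 23.5% and 23.5% higher were near or below the 22.7%, 20.0% and 31.7% of all genes. Pprc1, a coactivator of the PGC-1 family, was 66.5, 60.8, 68.0, 63.7 and 72.7 CPM with LP and 111, 102, 96.3, 101 and 98.6 CPM with LP 3M PIC, without overlap (log2 change 0.73). Gabpb1, a subunit of the ETS factor GABP, rose by 0.68, and Tfb2m, a mitochondrial transcription factor, fell by 0.30, which missed the threshold when mouse 1 was left out (adjusted p = 0.0555). Ppargc1b, another PGC-1 coactivator, named after its values were seen, rose with LP PIC (0.90) and LP 3M (0.48) and was at 0.29 with LP 3M PIC (adjusted p = 0.0865).

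**Figure D5:**
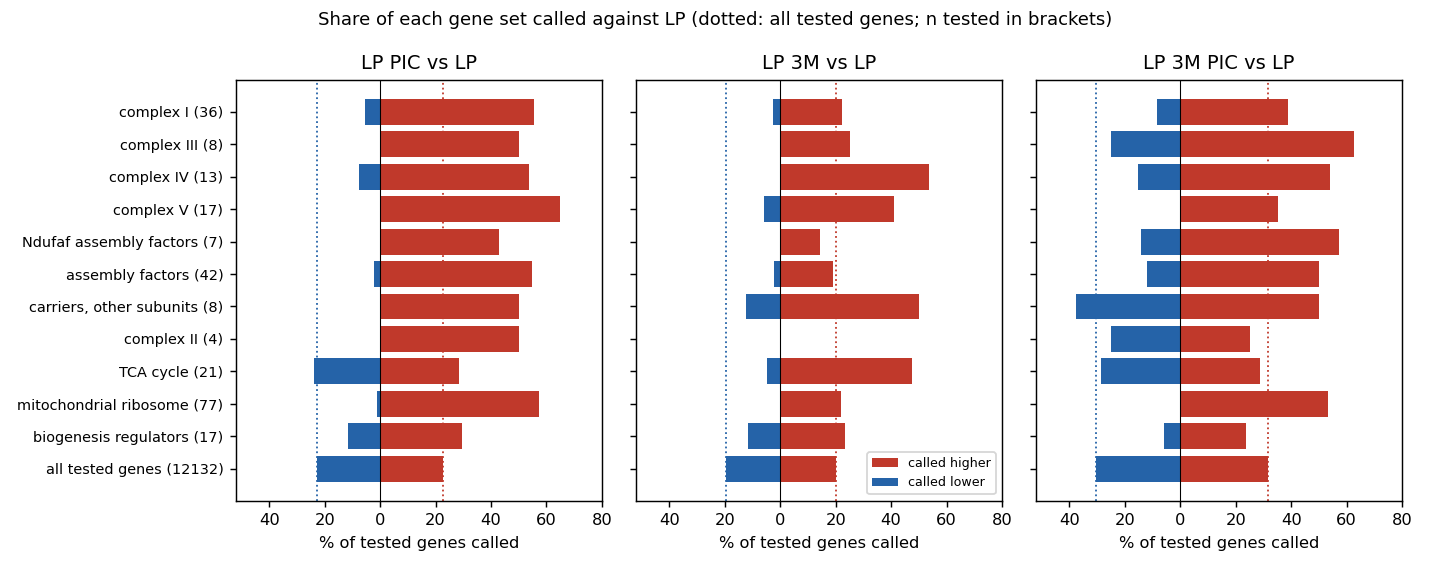
Share of the tested genes of each set that was called higher (red, right) or lower (blue, left) against LP in the 3 treatments, with the number tested in brackets and the share over all 12132 tested genes as dotted lines. With LP PIC the complexes reach 50% to 64.7% called higher against 22.7% of all genes, and the mitochondrial ribosome 57.1%.

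A list of inducible genes that act on the chain in activated macrophages changed far more than the subunits. The list was drawn up from genes known as inducible, so this contrast follows from the choice and is a description only. Of 8 such genes, 7 rose and 1 fell with LP PIC, 6 rose and 1 fell with LP 3M, and 7 rose and 1 fell with LP 3M PIC. Nos2, whose product nitric oxide can block complex IV, rose from 0.214 ± 0.158 CPM with LP to 94.2 ± 59.8 CPM with LP PIC, 18.2 ± 11.3 CPM with LP 3M and 240.0 ± 82.5 CPM with LP 3M PIC. The LP libraries held 0 to 0.436 CPM and did not overlap any treatment. With so few reads in LP, Nos2 passed the filter on low counts through the treated conditions. Its differences are therefore given as a description, without a test, although the counts of called genes include it. Irg1, the enzyme of itaconate synthesis, averaged 26.4 ± 16.2 CPM with LP and 1734 ± 310.4 CPM with LP 3M PIC (log2 change 6.12). Sod2, the mitochondrial superoxide dismutase, rose by 4.54, the arginase gene Arg2 by 4.26 and Hif1a by 1.66 with LP 3M PIC. Ucp2, a carrier of the inner membrane, fell from 721 ± 66.7 to 258 ± 24.5 CPM (log2 change -1.37, SE 0.13, edgeR adjusted p = 3.67e-08). Nos2, Irg1, Hif1a, Cyc1 and Sdhd were named after their values were seen.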

How the data were processed

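Libraries were made from poly(A) RNA with a stranded kit, per the labels' protocols. The authors deposited 1 table of read counts per gene symbol and library. Per the submitters' processing notes, FastQC 0.11.1, STAR 2.7.11b, HTSeq 0.13.5, DESeq2 1.44.0 and the GRCm38 build were used; the annotation and the strand setting were not stated there. Reads in no gene (5.94% to 8.58%) and ambiguous reads (1.14% to 1.90%), listed as extra entries in the tables, were left out. These shares are of the gene total plus all extra entries. Gene totals were 9.74 M to 23.9 M reads (M, 1000000), so 3 reads are 0.126 to 0.308 CPM.

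Counts were fitted with edgeR 4.0.16 in R 4.3.3 (quasi-likelihood test, TMM scaling, filterByExpr with a minimum count of 10, 1 coefficient per condition, all 20 libraries). This tested 12132 genes, with 99.97% of counts. The biological coefficient of variation was 0.194. A gene was called where its p, adjusted by Benjamini-Hochberg across every gene fitted, was below 0.05. CPM are of the gene total. Lengths and overlaps come from GENCODE M21, copies from BLAST 2.17.0 and promoters from RefSeq. The fit was tried on simulated independent libraries with a fixed dispersion and no mouse effect. That trial does not cover libraries paired by mouse. Replicates are mice. The labels give the same 5 mice in every condition. Deviations from the condition means correlated between libraries of 1 mouse with a median r of 0.399 (30 pairs, 0.137 to 0.541). Between mice the median was -0.152 (120 pairs, -0.404 to 0.375), so the ranges overlapped. Deviations from a condition mean sum to 0, which by itself pulls the values between mice down. The mouse block is an alternative, as are DESeq2 1.42.0, other scalings, no filter, fits on the conditions compared alone, and leaving out each mouse or single libraries, of which LP PIC of mouse 5 and LP 3M PIC of mouse 3 were added after seeing the data.

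Named members are the 2 of smallest p per complex against LP, the largest called rise and fall per comparison, the highest per kb, isoform genes and, per other list, the 2 of smallest p with LP 3M PIC and 1 against the main direction; further ones are said to be named after their values were seen. The members and lists were chosen with earlier results of these data known.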

Additional observations from a re-analysis of the deposited data

Results flagged for a closer look

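In 18 of 289 sets of 5 libraries examined for a named gene, 1 library lay far from the other 4 by Dixon's criterion, which chance meets in about 1 set in 20. The LP 3M PIC library of mouse 5 stood apart for Cox6b1 (179.8 CPM), Cox7b (119.7 CPM), Cox8a (183 CPM), Cyc1 (116 CPM), Ndufs1 (65.9 CPM) and Uqcr11 (62.7 CPM). The other such libraries were AA467197 in the LP 3M library of mouse 3 (14.7 CPM), Cox5a in the LP library of mouse 2 (166 CPM), Mrpl45 in the LP 3M library of mouse 5 (49.7 CPM), Mrpl45 in the LP 3M PIC library of mouse 2 (80.4 CPM), Ndufab1 in the LP library of mouse 1 (38.4 CPM), Ndufc2 in the LP 3M library of mouse 4 (54.8 CPM), Ndufv1 in the LP library of mouse 2 (59.4 CPM), Ndufv3 in the LP 3M library of mouse 3 (48.8 CPM), Pprc1 in the LP PIC library of mouse 2 (88.2 CPM), Sdhd in the LP library of mouse 2 (115 CPM), Ttc19 in the LP 3M library of mouse 2 (10.2 CPM) and Uqcrb in the LP PIC library of mouse 4 (74.6 CPM).

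The change with 1 adjuvant differed by whether the other was present, by the test of the interaction, for these members: Atp5c1 (-0.31), Atp5l (-0.55), Cox5b (-0.48), Cox8a (-0.56), Ndufab1 (-0.36), Ndufc2 (-0.47), Ndufv2 (-0.28), Uqcrb (-0.36) and Uqcrq (-0.42) on the log2 scale. All of these members missed the threshold without mouse 4, with edgeR adjusted p from 0.0679 (Cox8a) to 0.184 (Uqcrb). Among the named genes outside the complexes, the interaction was also called for Arg2 (-2.43), Hif1a (-0.61), Irg1 (-3.33), Mrpl45 (-0.52), Mrpl52 (-0.90), Ppargc1b (-1.10), Sdhd (-0.39) and Sod2 (-2.35). For Nos2 the fitted value was -5.05, given as a description only, since Nos2 passed the filter on low counts through the treated conditions. Of these genes outside the complexes, Hif1a, Mrpl45, Mrpl52 and Sdhd missed the threshold when single mice were left out, with edgeR adjusted p of up to 0.139, 0.188, 0.169 and 0.157 in that order. In the related lists Mrps27, a gene of the mitochondrial ribosome named after its value was seen, was called in the other direction (0.32, edgeR adjusted p = 0.0401). These lists hold further called genes that are not named here. Of the 77 genes of the mitochondrial ribosome 5 were called lower and 1 higher, 7.79% in either direction, near the 8.43% of all genes. Of 21 citric acid cycle genes 1 was called lower, and of 42 assembly factors 1.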

How the results depend on the processing

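Leaving out 1 mouse or 1 library, the members called numbered 31 to 48 for LP PIC against LP, 23 to 30 for LP 3M against LP, 34 to 43 for LP 3M PIC against LP, 7 to 18 for LP 3M PIC against LP PIC, 6 to 13 for LP 3M PIC against LP 3M, 6 to 22 for LP 3M against LP PIC, 0 to 20 for the interaction. Their median log2 change ranged over 0.21 to 0.27 for LP PIC against LP, 0.14 to 0.17 for LP 3M against LP, 0.11 to 0.22 for LP 3M PIC against LP, -0.11 to -0.061 for LP 3M PIC against LP PIC, -0.086 to 0.021 for LP 3M PIC against LP 3M, -0.096 to -0.0023 for LP 3M against LP PIC, -0.29 to -0.23 for the interaction. The median of LP 3M PIC against LP 3M was 0.0039 without mouse 1 and 0.021 without mouse 2, in place of -0.019. With library totals alone the LP 3M median was 0.041, 25 members were called for LP 3M PIC against LP PIC and 5 for the interaction. A fit on the conditions compared alone called 7 for LP 3M PIC against LP PIC, and one without a filter on low counts called 4 for the interaction. With the mouse as a replicate block, which uses the pairing of libraries by mouse, 16 members were called for the interaction, and the 6 other counts stayed within 1.5 times, at 51, 31, 47, 19, 14, 23 in the order above. On TMM-scaled totals the mean sum was 73.8 CPM for the Ndufaf genes in LP, 1878 in LP and 2055 in LP 3M for complex I, 636 and 703 for complex III, 1396 and 1636 for complex IV, and 2362 in LP for complex V. Of 246 calls of named genes over all comparisons, 174 passed the threshold in every alternative run, 72 missed it in at least 1 and 0 changed sign; the most were missed without mouse 4 (55), and 26 with library totals alone. The mouse block ended 1 of those calls, that of Ndufa11 for LP 3M against LP PIC (adjusted p = 0.0518). The cause of these shifts was not tested. Depth limits the rarest members: Cox7a1 in LP 3M PIC lies near the 3 reads per library that were taken as a floor. Near-identical copies and antisense neighbours limit single genes, and transcript levels do not give protein or respiration.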
